A study of Mus musculus with 163 samples.

Results

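Growing oocytes (GROs) made from induced pluripotent stem cells (iPSCs) were compared with GROs taken from mice, across all genes of the table. The iPSC-derived group held 23 oocytes and the in vivo group 24, together 47 of the 163 oocytes of the series, and membership came from the sample labels alone. Each library was made from 1 oocyte by Smart-seq2, a method that copies and amplifies polyadenylated RNA, after the follicular somatic cells had been stripped off and the zona pellucida dissolved with acid. The comparison spans every culture step up to the GRO stage.

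The iPSC-derived GROs, called GROiPSC below, came from a single female BVSC-iPSC line that carries Blimp1-Venus and Stella-ECFP reporter transgenes, so they describe 1 line. That line was turned into primordial germ cell-like cells, which were sorted and aggregated with somatic cells of E12.5 female gonads from outbred Swiss Webster mice to form reconstituted ovaries. The aggregates met retinoic acid, serum and, for a time, the estrogen receptor antagonist fulvestrant. The gonadal cells had been depleted of their own germ cells, and this depletion need not be complete. The in vivo GROs (GROin vivo) had no culture. The strain and age of the mice behind them are not given in the sources used here. The paper reports that iPSC-derived and gonad-derived GROs were larger than in vivo GROs, and oocyte size was not used here. Genetic background, oocyte size and culture therefore cannot be told apart in this comparison. No label names an animal, an aggregate or a culture for an oocyte. Each group was therefore treated as 1 sample, and differences are described by their size and by how far the oocytes of both groups overlap, with no test. GROs cultured from E12.5 gonads (GROPGC, 24 oocytes) and fully grown oocytes (FGOs) of both sources appear only where they place a result.

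An oocyte grows inside its follicle while it stores the transcripts that the early embryo will use, and it depends on the surrounding granulosa cells for much of its energy supply. Granulosa cells carry out most of the glycolysis of the follicle and pass pyruvate to the oocyte through gap junctions. During growth the oocyte builds its zona pellucida, secretes the growth factors Gdf9 and Bmp15, and sets DNA methylation across transcribed genes.

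In units of 1000000 reads (M), library totals over genes ran from 5.64 to 13.7 M in GROiPSC (median 6.99 M) and from 5.55 to 7.54 M in GROin vivo (median 6.87 M). The summed groups held 164 M and 162 M reads. A level is given in reads per M of its library (CPM), so that 3 reads over a whole group correspond to 0.0182 CPM in GROiPSC and 0.0185 CPM in GROin vivo. After every library was thinned to 5.5 M reads, the median number of genes with a read was 13769 in GROiPSC (13032 to 14092) and 13497.5 in GROin vivo (12756 to 13830). Both groups carried the transcripts that define an oocyte. All 13 oocyte markers were measured and none was 2-fold apart, with log2 ratios from -0.68 for the receptor Kit to 0.36 for the transcription factor Nobox. Gdf9 had 11164 CPM in the median GROiPSC (9082 to 14247) and 10149 CPM in the median GROin vivo (9145 to 11242). The 13 markers summed to a median of 47272 CPM (39773 to 53311) in GROiPSC and 48816 CPM (43207 to 56873) in GROin vivo.

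Markers of other cells were measured next. Of 14 granulosa cell markers, 11 passed the filter on low values described below, and they summed to a median of 85.02 CPM (43.5 to 156) in GROiPSC and 56.4 CPM (19.6 to 129) in GROin vivo. Gata4 and Cyp19a1 were the 2 of these that lay at least 2-fold higher in GROiPSC (log2 ratios 1.37 and 1.14), and against GROin vivo 17 to 24, a set described below, neither did (0.82 and 0.73). The median ratio of the 11 was -0.11 and 3 lay above 0. Amh, a hormone that granulosa cells make in quantity, stood at 0.109 and 0.402 CPM. Of 13 theca and stroma markers 4 were measured, and Vim was the only one 2-fold apart, at -1.45. Against GROin vivo 17 to 24 Vim stood at -1.29 and Hsd3b1 at -1.63. Of 8 blood and endothelial markers 2 were measured, and they summed to a median of 95.1 CPM (65.9 to 156) in GROiPSC and 73.2 CPM (3.14 to 116) in GROin vivo. Most of this was Pecam1 (CD31), with 94.2 and 67.0 pooled CPM (0.49), while the globin genes Hba-a2 and Hbb-bs had no read in either group. Single oocytes ran from 63.4 to 151 CPM of Pecam1 in GROiPSC and from 2.48 to 112 CPM in GROin vivo. Pecam1 is an adhesion protein of endothelium, but the paper also used CD31 antibodies to remove germ cells from gonads. Its level therefore does not tell endothelial RNA from oocyte RNA. The part of somatic RNA in the differences below was not tested.

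In vivo GROs fell into 2 sets that their labels do not explain. The 8 GROin vivo numbered 17 to 24 in their titles separated from the 16 numbered 1 to 16 along the third principal component, which held 8.32% of the variance among the 47 oocytes. In 678 genes every one of these 8 oocytes lay above all other 16, and in 160 genes below. The same cut by title number gave at most 1 such gene in each of 4 other groups of the series. GROin vivo 3 also stood apart for a few genes. Many of the named results that rest on either are given with and without them, and the split was noticed after the data were seen.

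Of the 21950 genes in the table, 13136 had more than 1 CPM in at least 3 of the 47 GROs and were compared. The ratio used throughout is the log2 of pooled CPM in GROiPSC over pooled CPM in GROin vivo, after 0.5 CPM was added to each. Pooled CPM is the summed reads of a group over its summed total. This addition pulls the ratios of low genes towards 0. The median over all genes was -0.04, and levels differed by less than 2-fold for 90.0% of them. A gene was called apart at 4-fold. In GROiPSC 141 genes were at least 4-fold higher (1.07%) and 25 at least 4-fold lower (0.19%). At 2-fold the counts were 737 higher (5.61%) and 575 lower (4.38%), so against all GROin vivo they were more even than at 4-fold. This depended on the in vivo set. The 2-fold counts were 792 higher and 364 lower against GROin vivo 1 to 16, and 897 higher and 1420 lower against 17 to 24. The highest ratio was 7.78 and the lowest -3.28. Among large differences, 42 genes were at least 8-fold higher and 1 at least 8-fold lower. Every GROiPSC lay above every GROin vivo for 129 genes (0.982%) and below for 44 (0.335%). Within the 4-fold genes this held for 61 of 141 and 5 of 25.

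**Figure D1:**
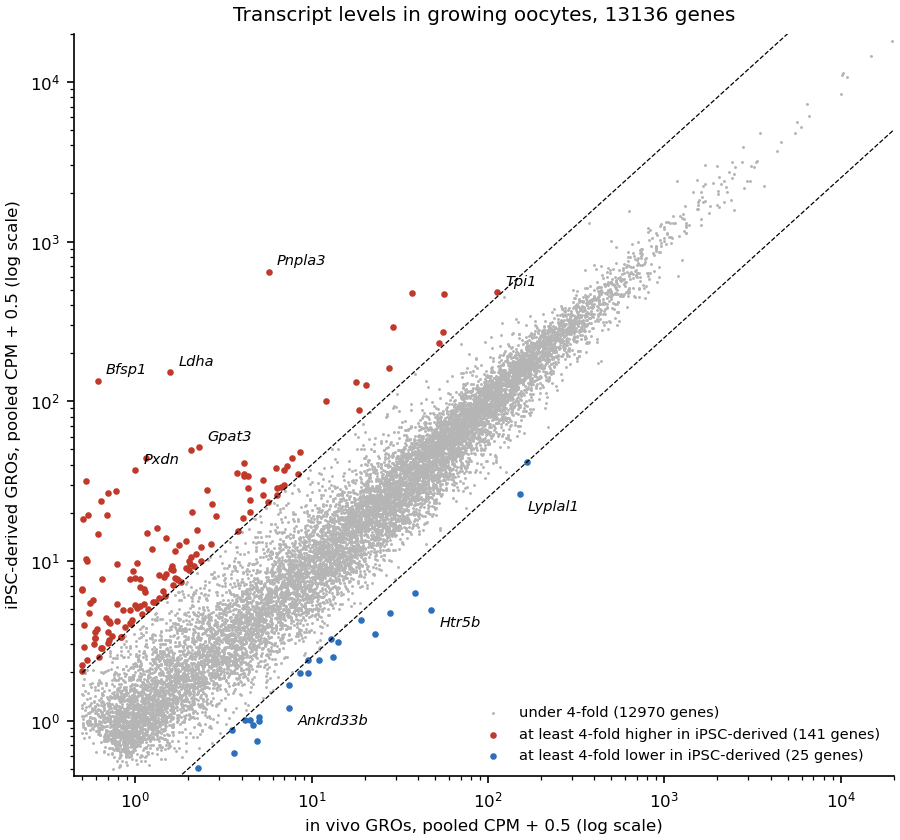
Pooled level of each of 13136 genes in in vivo GROs (horizontal axis, CPM + 0.5, log scale) and iPSC-derived GROs (vertical axis, CPM + 0.5, log scale). Each point is a gene, dashed lines mark 4-fold, and the 141 red genes above the upper line outnumber the 25 blue genes below the lower line.

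Of the 141 higher genes, 76 had under 1 pooled CPM in GROin vivo. Under 5 pooled CPM there were 118 of the 141, beside 4288 of all 13136 compared genes. A low in vivo level is in part built into a rule on the ratio, so these counts were not read as a trait of the higher genes. Against GROin vivo 1 to 16 alone there were 152 higher and 25 lower genes, and against GROin vivo 17 to 24 alone 135 and 138. The higher genes thus changed little in number with the choice of in vivo oocytes, while the lower genes went from 25 to 138. Genes that passed 4-fold against both sets numbered 110 higher and 11 lower.

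Promoters are shown for the 4 named higher and 2 named lower genes of largest ratio for which the sequence table holds a single start site. Each run is the 250 bases before that start, 5′ to 3′ in the sense of the gene, from RefSeq on GRCm38.p6, in lower case with CG dinucleotides in capitals. The runs of Bfsp1, Pxdn and Krt12 lie wholly within the gene spans given below. Their start sites are thus not the outer ends of those spans, and their CG counts describe only the start used. CG density is compared with that of other genes further below.
Bfsp1, minus strand, chr2:143863174-143863423: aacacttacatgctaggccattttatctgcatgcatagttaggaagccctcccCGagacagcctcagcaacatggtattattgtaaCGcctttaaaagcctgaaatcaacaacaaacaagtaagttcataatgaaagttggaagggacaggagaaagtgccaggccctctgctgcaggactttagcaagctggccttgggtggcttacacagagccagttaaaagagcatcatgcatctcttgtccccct
Pnpla3, plus strand, chr15:84167566-84167815: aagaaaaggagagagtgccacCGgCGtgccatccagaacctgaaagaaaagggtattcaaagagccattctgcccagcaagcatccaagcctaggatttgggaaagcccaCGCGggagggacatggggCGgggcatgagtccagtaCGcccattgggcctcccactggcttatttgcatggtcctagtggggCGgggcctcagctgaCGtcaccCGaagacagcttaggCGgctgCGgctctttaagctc
Spesp1, minus strand, chr9:62282180-62282429: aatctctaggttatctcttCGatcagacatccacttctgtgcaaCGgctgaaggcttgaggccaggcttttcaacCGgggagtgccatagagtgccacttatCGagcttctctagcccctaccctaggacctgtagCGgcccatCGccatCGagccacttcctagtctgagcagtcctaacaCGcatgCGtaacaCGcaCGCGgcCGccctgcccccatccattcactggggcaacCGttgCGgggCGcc
Pxdn, plus strand, chr12:29937786-29938035: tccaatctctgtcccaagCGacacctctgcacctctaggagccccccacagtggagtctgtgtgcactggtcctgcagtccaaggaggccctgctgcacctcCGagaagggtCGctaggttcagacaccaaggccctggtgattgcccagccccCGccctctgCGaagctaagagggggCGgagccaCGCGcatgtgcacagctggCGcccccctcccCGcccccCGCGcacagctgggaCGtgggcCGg
Ankrd33b, minus strand, chr15:31367760-31368009: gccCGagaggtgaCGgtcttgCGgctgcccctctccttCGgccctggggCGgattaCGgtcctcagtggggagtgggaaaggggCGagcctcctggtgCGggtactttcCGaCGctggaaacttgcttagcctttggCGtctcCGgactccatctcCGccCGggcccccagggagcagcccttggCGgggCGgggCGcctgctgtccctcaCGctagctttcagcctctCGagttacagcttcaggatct
Krt12, minus strand, chr11:99422260-99422509: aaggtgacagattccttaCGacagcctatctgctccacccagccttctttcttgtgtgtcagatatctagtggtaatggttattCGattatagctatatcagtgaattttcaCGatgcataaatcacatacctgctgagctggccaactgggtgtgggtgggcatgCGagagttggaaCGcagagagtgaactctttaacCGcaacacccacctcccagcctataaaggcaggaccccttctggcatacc
The Bfsp1 run held 2 CG and that of Krt12 6, against 11 in Pnpla3, 14 in Pxdn, 16 in Spesp1 and 19 in Ankrd33b.

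The question behind the comparison was which transcripts differ once all steps from the stem cell to the GRO have taken place in culture. The 15 higher genes with the largest ratios that met the naming rule (a pooled level of at least 5 CPM, and 4-fold also between medians and with any 1 oocyte left out) had ratios from 4.50 to 7.78, and in each of them no GROiPSC overlapped a GROin vivo. The rule was met by 91 higher genes. Bfsp1 (chromosome 2, 143826528 to 143915219) had the largest ratio. It encodes filensin, a beaded filament protein of the eye lens. GROiPSC ranged from 29.4 to 339 CPM around a median of 104, while the GROin vivo median was 0 and the highest 1.54 CPM. The pooled levels were 134 CPM (95% Poisson interval 132 to 136) and 0.111 CPM (0.0659 to 0.176). These intervals treat reads as independent, which amplified reads are not. They are therefore too narrow for molecules, and they leave out the spread between oocytes.

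Pnpla3 (chromosome 15, 84167776 to 84189521), a lipid droplet protein with acylglycerol and retinyl ester lipase activity, was the most abundant of the 15 by CPM. It ranged from 494 to 925 CPM in GROiPSC (median 640) and from 3.33 to 7.81 CPM in GROin vivo (median 4.73), a ratio of 6.83. Both groups were narrow, with a wide empty gap between them. Gpat3 (chromosome 5, 100845665 to 100899102), which adds the first acyl chain in triacylglycerol synthesis, had 15.7 to 94.4 CPM (median 47.5) against 0.140 to 5.07 CPM (median 1.53), a ratio of 4.50. Its locus overlaps the annotation of Abraxas1 and Gm46917.

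Among the other named genes were enzymes and a transporter. Ldha (chromosome 7, 46842274 to 46855627), the lactate dehydrogenase subunit typical of glycolytic tissue, ranged from 18.9 to 567 CPM in GROiPSC (median 126) and from 0 to 5.57 CPM in GROin vivo (median 0.783), a ratio of 6.59. The lowest GROiPSC was still above the highest GROin vivo. Processed pseudogenes resemble Ldha, so its absolute level is uncertain. Sis (chromosome 3, 72888557 to 72967863), the sucrase-isomaltase of the intestinal brush border, had 7.91 to 28.8 CPM (median 18.2) in GROiPSC, whereas 1 read was counted in all 24 GROin vivo. The pooled levels were 17.7 and 0.00618 CPM, a plain ratio of 2867-fold whose counting interval ran from 514-fold to 113280-fold. Manba (chromosome 3, 135485611 to 135571404), a lysosomal beta-mannosidase, had 18.2 to 35.3 CPM (median 26.6) against 0 to 1.06 CPM (median 0.164), a ratio of 5.14. Slc4a3 (chromosome 1, 75546044 to 75559431), a chloride-bicarbonate exchanger, had 25.9 to 95.1 CPM (median 48.1) against 0.147 to 6.53 CPM (median 1.25), a ratio of 4.58. Marchf11, a membrane-bound ubiquitin ligase, had 2.43 to 40.1 CPM against 0 to 1.29 CPM (4.81).

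Genes of the cell surface and matrix were also among them. Spesp1 (chromosome 9, 62270729 to 62282179), known from the equatorial segment of sperm, had 10.7 to 92.1 CPM (median 20.3) in GROiPSC and 4 reads over all GROin vivo, a ratio of 5.90. Pxdn (chromosome 12, 29936642 to 30017658), a peroxidase that cross-links collagen IV, had 23.4 to 48.4 CPM against 0 to 1.99 CPM (5.21), and its locus overlaps Gm31939. Pdgfrl, named for its likeness to a growth factor receptor, had 9.83 to 42.2 CPM against 0 to 0.722 CPM (5.25). Skint5, of an immunoglobulin-type family with near-identical copies, had 4.21 to 40.9 CPM against 0 to 0.721 CPM (5.21). The other 3 were A930015D03Rik (5.26), Prr15l (5.18) and Gm20098 (4.58), and A930015D03Rik overlaps H2-T22, H2-T23 and H2-T24 while Prr15l overlaps Gm11525, so reads of these cannot be told apart from their neighbours without strand.

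For 4 of the 141 genes no read was counted in GROin vivo. Against a floor of 3 reads over the group, Defb48 was at least 331-fold higher, Defa29 at least 326-fold, Klhl4 at least 92.8-fold and Slurp2 at least 83.6-fold. These were low in GROiPSC too, with medians of 5.76, 5.85, 1.60 and 1.38 CPM. Defb48 and Defa29 are defensins, small antimicrobial peptides encoded by families of similar genes, so their counts are uncertain.

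**Figure D2:**
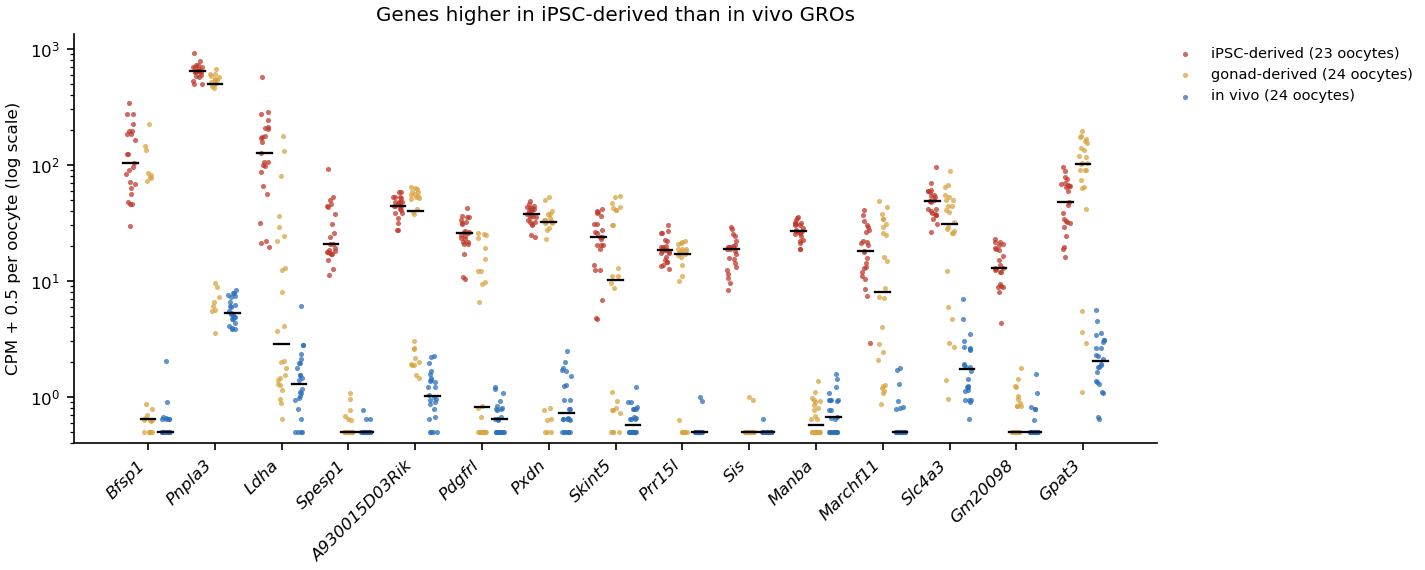
Level of the 15 named higher genes in single oocytes (vertical axis, CPM + 0.5, log scale) for 23 iPSC-derived, 24 gonad-derived and 24 in vivo GROs. Points are oocytes and bars are group medians. All iPSC-derived points lie above all in vivo points in every gene, whereas gonad-derived points lie in one range, the other, both or between them.

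GROPGC share the differentiation culture with GROiPSC but not the steps from stem cells, and their levels are set beside the others without a further comparison. Their germ cells came from whole dissociated embryonic gonads and not from the iPSC line. Genetic background may thus differ too, between these groups and among GROPGC, and its part was not tested. Among the 61 higher genes whose groups did not overlap, 21 had no GROPGC within the GROiPSC range, among them Spesp1, Sis, Manba and Gm20098. Sis stood at 0.0318 CPM and Manba at 0.191 CPM in pooled GROPGC. In 37 of the 61 genes, at least 3 GROPGC reached the GROiPSC range and at least 3 others the GROin vivo range. Bfsp1 had 8 GROPGC in the first range, 16 in the second and 0 between. For Skint5 the numbers were 14, 10 and 0, for Gpat3 20, 4 and 0, for Pxdn 16, 7 and 1, for Ldha 7, 14 and 3, and for Pnpla3 10, 6 and 8. A930015D03Rik, Pxdn, Skint5 and Prr15l lie on 4 chromosomes and were set side by side after their values were seen. Of the 24 GROPGC, 12 reached the GROiPSC range for all 4 of them, 6 for none and 6 for some.

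The lower genes were fewer and less separate, and 8 met the naming rule. Htr5b (chromosome 1, 121509758 to 121529312), a serotonin receptor, had the lowest ratio, -3.28. It ranged from 0.292 to 10.1 CPM in GROiPSC (median 3.46) and from 19.7 to 87.3 CPM in GROin vivo (median 45.4), with no overlap. Lyplal1 (chromosome 1, 186087732 to 186117310), a lysophospholipase-like serine hydrolase, was the most even. It had 20.1 to 33.6 CPM in GROiPSC (median 25.0) and 95.3 to 215 CPM in GROin vivo (median 155), again with no overlap and a ratio of -2.53. Pooled GROPGC had 152 CPM of Lyplal1, and none of the 24 reached the GROiPSC range.

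The other 6 overlapped. Krt12 (chromosome 11, 99415664 to 99422593), a keratin of the cornea, had 0.281 to 17.4 CPM (median 3.94) against 3.14 to 87.4 CPM (median 30.4), a ratio of -2.61. Ankrd33b (chromosome 15, 31291479 to 31367802), an ankyrin repeat gene, had 0 to 2.99 CPM (median 0.511) against 1.98 to 21.4 CPM (median 5.35), a ratio of -2.64. Prr18 stood at -2.55 and Cldn9, a tight junction claudin, at -2.26. Cpxm2, a carboxypeptidase-like gene, stood at -2.39 against all GROin vivo and at -1.63 against numbers 17 to 24. Lrrc1, a relative of the polarity gene Scribble, stood at -2.18 against all and at -1.56 against numbers 1 to 16. Htr5b, Lyplal1, Krt12, Ankrd33b, Prr18 and Cldn9 were at least 4-fold lower against both sets.

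**Figure D3:**
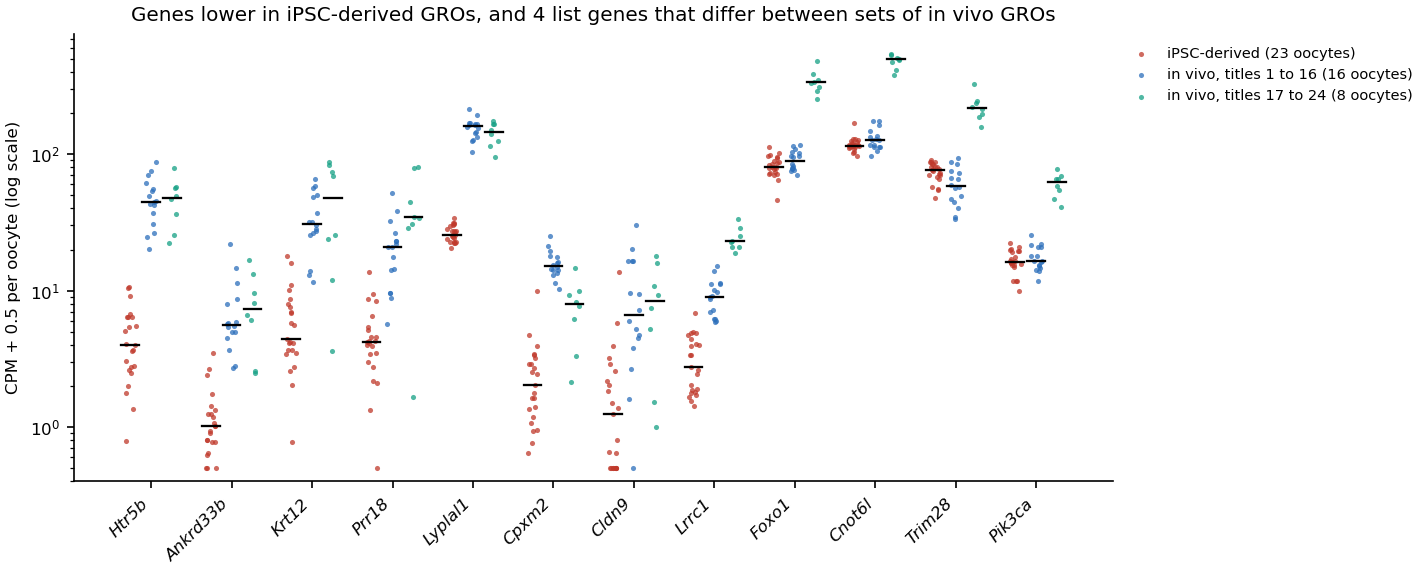
Level of the 8 named lower genes, and of Foxo1, Cnot6l, Trim28 and Pik3ca, in single oocytes (vertical axis, CPM + 0.5, log scale). Points are oocytes, bars are medians, and in vivo GROs numbered 1 to 16 and 17 to 24 are drawn apart. Htr5b and Lyplal1 are low in iPSC-derived GROs against both in vivo sets, while the last 4 genes are higher in numbers 17 to 24 than in the other oocytes.

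Of the 138 genes at least 4-fold lower against numbers 17 to 24, 127 were not so against numbers 1 to 16. Foxo1, a forkhead transcription factor, had a ratio of -1.08 against all GROin vivo, -0.15 against numbers 1 to 16 and -2.05 against 17 to 24. Cnot6l, the deadenylase of the maternal mRNA decay machinery, had -1.06, -0.14 and -2.02 in the same order, and Trim28 (under 4-fold against either set), a corepressor that guards imprints, had -0.62, 0.30 and -1.57. For Pik3ca, the catalytic subunit of PI3K, the values were -0.94, -0.08 and -1.86, also under 4-fold. Pooled GROPGC had 106 CPM of Foxo1, beside 81.8 CPM in GROiPSC. What sets these 8 oocytes apart was not tested. In GROin vivo 3 the adhesion adaptor Fermt3 stood at 508 CPM while the in vivo median was 0.549 CPM, Itga3 at 81.5 (median 0.470), Septin9 at 164 (median 1.14) and the small heat shock protein Hspb1 at 111 (median 4.17). Without this oocyte the ratio of Fermt3 went from -2.72 to 1.60 and that of Septin9 from -2.13 to 0.25, both changing direction. That of Itga3 went from -2.31 to -0.35 and that of Hspb1 from -2.20 to -1.44, and 143 genes were higher and 19 lower.

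Genes of glycolysis and lactate were among the lists with members apart. Of 42 listed genes for glycolysis, lactate and monocarboxylate transport and pyruvate dehydrogenase, 36 were measured, 11 were at least 2-fold higher in GROiPSC (5.61% of all genes) and 0 at least 2-fold lower (4.38%). Their median ratio was 0.44, beside -0.04 over all genes, and 29 lay above 0. The count was 11 and 0 against either set of GROin vivo, beside 6.03% and 2.77% of all genes against numbers 1 to 16 and 6.83% and 10.8% against 17 to 24. Ldha, Aldoc and Tpi1 were at least 4-fold higher. Tpi1, which interconverts the triose phosphates, ranged from 335 to 923 CPM in GROiPSC (median 478) and from 85.8 to 133 CPM in GROin vivo (median 111), a ratio of 2.09 with no overlap. Against numbers 17 to 24 the ratio of Tpi1 was 1.998, just under 4-fold. Slc2a1, the basal glucose transporter, ranged from 241 to 569 CPM against 101 to 186 CPM, a ratio of 1.18 and again with no overlap.

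Other members of the list differed less than Ldha. Pfkl, the liver-type phosphofructokinase, had 36.4 to 256 CPM (median 102) against 13.3 to 97.7 CPM (median 35.6), a ratio of 1.43. Pgk1, an ATP-producing step with many pseudogene copies, had 1.16. The pyruvate kinase Pkm had 0.52 and the glucose phosphate isomerase Gpi1 0.18. Around pyruvate dehydrogenase, Pdk1, the kinase that switches the complex off, stood at 1.20 with 85.9 to 241 CPM (median 133) against 37.9 to 106 CPM (median 56.1). Pdha2, the retrogene form of the E1 alpha subunit, stood at 1.64, whereas Pdha1, Pdhb and Dld stood at 0.03, 0.03 and 0.22. Of the lactate and pyruvate carriers, Slc16a1 was on the other side at -0.72, and the low Slc16a3 stood at 1.09 (0.42 with 1 oocyte left out). Per kilobase of exon, Ldhb held 3207 CPM in GROiPSC and 3668 CPM in GROin vivo, beside 78.0 and 0.557 CPM for Ldha, so Ldhb remained the main lactate dehydrogenase transcript in both groups.

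Ldha varied strongly among GROiPSC, and some of these genes varied with it. Across the 23 GROiPSC the Spearman correlation with Ldha was 0.84 for Tpi1, 0.82 for Pdk1, 0.77 for Slc2a1 and 0.76 for Pgk1, but 0.24 for Pfkl and -0.10 for Gapdhs. The correlation of Ldha with the library total was 0.27. Across the 24 GROin vivo, where Ldha was near the floor, these 6 genes gave -0.22 to 0.35. The GROiPSC come from 1 iPSC line and the genes correlated share each oocyte's library and scaling, so these correlations are a description with no test.

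**Figure D4:**
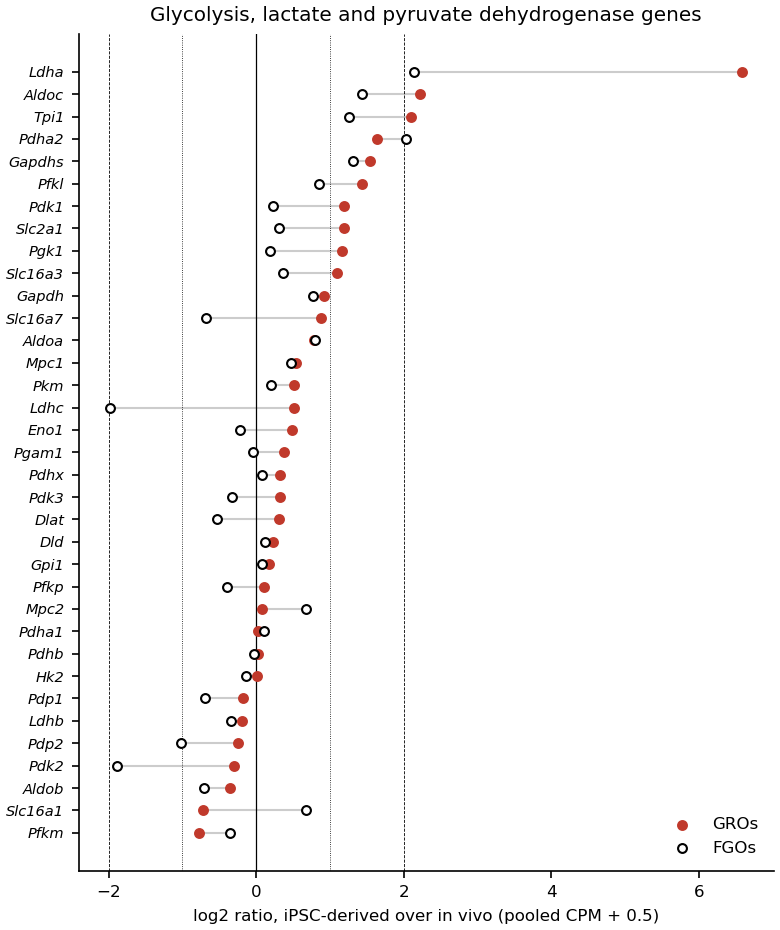
Log2 ratio of iPSC-derived over in vivo oocytes (pooled CPM + 0.5, horizontal axis) for 35 measured genes of the glycolysis, lactate and pyruvate dehydrogenase list. Red points are GROs, open points FGOs, and vertical lines mark 2-fold and 4-fold. In GROs 10 of the drawn genes lie beyond 2-fold on the higher side and 0 on the lower side, and Ldha stands at 6.59.

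Of all 31 lists, 13 had a member at least 4-fold apart and 18 had none. The pluripotency and primordial germ cell list had 14 measured genes and 3 at least 2-fold higher (5.61% of all genes), and Zfp42 (Rex1), a marker of naive stem cells, reached 2.09 from 4.16 against 0.593 CPM. Its oocytes overlapped, with 0.504 to 7.42 CPM in GROiPSC and 0 to 3.14 CPM in GROin vivo. Against GROin vivo 17 to 24 the ratio of Zfp42 was 1.95, under 4-fold. Among 13 oocyte transcription factors, Sohlh2 was just under 4-fold higher (1.99) with 12.8 to 236 CPM (median 81.5) against 3.60 to 64.9 CPM (median 14.0). Of 26 meiotic prophase and cohesin genes, 4 were 2-fold higher (5.61%) and 0 lower (4.38%), and Hormad1, which marks unsynapsed chromosome axes, had 6.34 to 26.0 CPM against 0.399 to 4.07 CPM, a ratio of 2.81 with no overlap. Against GROin vivo 17 to 24 the counts of this list were 3 and 2. None of 32 meiotic arrest and spindle checkpoint genes was 2-fold apart, and 1 was lower against numbers 17 to 24.

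None of 23 DNA methylation genes was 2-fold apart, as 90.0% of all genes were not. Their median ratio was -0.42 with 4 above 0, and against GROin vivo 17 to 24 alone 4 were 2-fold lower (10.8% of all genes). Of 32 genes of maternal mRNA storage and decay 1 was 2-fold higher, Meioc (1.84, with 4.21 against 0.816 CPM), and 1 lower, while 10 were lower against numbers 17 to 24. Meioc stood at 2.53 against numbers 1 to 16 and at 1.02 against 17 to 24. Dppa3 (Stella), whose protein guards the maternal genome against demethylation in the zygote, was nearest on the higher side at 0.82, with 2204 to 3795 CPM (median 2968) in GROiPSC and 1302 to 2266 CPM (median 1651) in GROin vivo. The BVSC line carries a Stella-ECFP transgene, and how far its reads add to the Dppa3 count was not tested. Among 17 subcortical maternal complex and maternal effect genes only the chromatin remodeller Smarca4 passed 2-fold, with 46.4 CPM in GROiPSC and 93.7 CPM in GROin vivo. Its ratio was -0.83 against numbers 1 to 16 and -1.29 against 17 to 24. Of 20 oocyte growth factors and receptors, Egfr was 2-fold higher (1.84), Igf1r lower (-1.15, and -0.76 against numbers 1 to 16), and a further gene lower, with a list median of -0.30. These counts stand beside 5.61% of all genes higher and 4.38% lower. Against numbers 1 to 16 none of the 20 was 2-fold lower (2.77% of all genes, list median -0.11), and against 17 to 24 6 were (10.8%, list median -0.82). Of 26 piRNA and small RNA genes, Ago1 stood at 1.47 (0.92 against numbers 17 to 24) and Tdrd6, a tudor protein, at -1.41. In the PRC2 list the subunits Aebp2 and Jarid2 were on opposite sides (1.09 and -1.16). Jarid2 stood at -0.91 against numbers 1 to 16 and at -1.56 against 17 to 24, and Aebp2 at 1.30 and 0.75.

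In adhesion, signalling and metabolic lists genes lay on both sides, and their counts stand beside 5.61% of all genes 2-fold higher and 4.38% lower. Of 32 cadherin genes 6 were 2-fold higher and 1 lower, with Cdh6 (2.08) and Cdh15 (2.04) past 4-fold. Cdh15 stood at 1.98 against numbers 17 to 24 and at 1.91 with 1 oocyte left out. Cdh6 had 0.842 to 5.44 CPM against 0 to 1.08 CPM. Of 26 contactin, neurexin and related genes, 5 were 2-fold higher and 2 lower, and Cntn5 (2.14) and Nrcam (2.19) passed 4-fold. Nrcam stood at 1.99 against numbers 1 to 16, just under 4-fold, and at 2.73 against 17 to 24. Cntn5 is uneven, with a median of 2.54 and a highest oocyte of 27.9 CPM, and its ratio was 1.85 with the highest oocyte left out. Of 26 Notch pathway genes Heyl stood at 1.82 and the ligand Dll1 at -1.50. Of 20 retinoid genes 2 were 2-fold higher, the receptors Rarb (1.81) and Rarg (1.19), and 0 were lower, but 3 were lower against numbers 17 to 24 (10.8% of all genes). Of 36 xenobiotic and conjugation genes, Sult4a1, a brain sulfotransferase relative whose locus is near that of Pnpla3 on chromosome 15, had 15.0 to 65.2 CPM against 0.476 to 8.22 CPM (3.24, no overlap), while 6 others were 2-fold lower. In the cytokine list the death receptor Tnfrsf21 was lowest, at -2.15, with -1.60 against numbers 1 to 16, -2.86 against 17 to 24 and -1.87 without GROin vivo 18. Of 41 lipid genes Pnpla3 and the secreted phospholipase relative Pla2g12b (2.44) passed 4-fold. Of 29 imprinted genes 6 were 2-fold higher, led by Zrsr1 (1.82), and 1 lower, Smoc1 (-1.93 against all). Smoc1 stood at -0.83 against numbers 1 to 16, at -2.98 against 17 to 24 and at -2.56 without iPSC-derived GRO 1. Against numbers 1 to 16 the counts of the imprinted list were 6 and 0. Against 17 to 24 they were 6 and 7 (6.83% and 10.8% of all genes). Psd2, taken from the study's text, had 4.43 to 37.9 CPM (median 24.0) against 0 to 6.43 CPM (median 1.76), a ratio of 3.07.

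Levels in gonad-derived oocytes, which do not enter the comparison, were taken as a further measure. Genes whose pooled level was at least 2-fold lower in gonad-derived FGOs than in gonad-derived GROs made up 27.7% of the 141 higher genes (39 genes, exact binomial 95% interval 20.5% to 35.8%) and 9.87% of all 13136 genes. Genes at least 2-fold higher in FGOs made up 11.3% (16 genes, 6.63% to 17.8%), beside 5.05% of all genes. With 2 CPM added in place of 0.5, the latter share was 3.33% of 60 higher genes. These classes also follow how many oocytes of a group carry a gene at the iPSC level, since gonad-derived oocytes divide for many higher genes. Pnpla3 went from 365 CPM in GROPGC to 142 CPM in their FGOs, but from 646 to 620 CPM in iPSC-derived and from 5.19 to 4.51 CPM in in vivo oocytes. The classes were therefore not read as change during growth. Of the 25 lower genes 4 belonged to the first class and 3 to the second.

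The iPSC-derived and in vivo FGOs are separate oocytes, 24 and 20 in number, and show whether a difference was also present at the end of growth. Of the 141 higher genes 124 (87.9%) had a ratio above 0 in FGOs, as did 44.1% of all genes, and 97 (68.8%) were at least 2-fold higher (3.87% of all genes). Of the 25 lower genes 22 (88%) had a ratio below 0, as did 55.9% of all genes, and 17 (68%) were at least 2-fold lower (9.66%). The median FGO ratio was 1.66 for the higher genes, -1.38 for the lower genes and -0.08 for all genes. Bfsp1 had 231 CPM in iPSC-derived FGOs and 0.0207 CPM in in vivo FGOs, and Pnpla3 620 and 4.51 CPM. Lyplal1 had 28.7 and 193 CPM. Krt12 had 26.2 and 127 CPM and Ankrd33b 8.29 and 43.9 CPM, ratios of -2.25 and -2.34.

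Other differences were smaller or near 0 in FGOs. Ldha had 29.1 and 6.24 CPM in the FGO groups, so that its ratio was 2.14 in place of 6.59, with a lower level in iPSC-derived and a higher level in in vivo oocytes than at the GRO stage. The median of the glycolysis list was 0.11 in FGOs, with 5 members 2-fold higher and 3 lower. Steap4, a metalloreductase, had 64.4 to 216 CPM in GROiPSC and 0 to 55.0 CPM in GROin vivo (2.89), but 69.3 and 65.4 CPM in the FGO groups (0.08). Psd2 (0.09), Pla2g12b (-0.07), Zfp42 (-0.01) and the ligand Wnt5a (0.18) were likewise near 0 in FGOs. Htr5b went from -3.28 to -0.69. At 2-fold, 5 higher genes were on the opposite side in FGOs, namely Slc2a9, Slc2a12, Gm4224, Nrn1 and Chrdl1, and none of the 25 lower genes was. With 1 oocyte left out each of the 5 fell under 4-fold in GROs. The ratio of Nrn1 went from 3.16 to 1.47 without iPSC-derived GRO 8, and its medians were 0.803 and 0.322 CPM. Slc2a12, a glucose transporter, had 23.0 against 5.14 CPM in GROs and 29.8 against 72.4 CPM in FGOs.

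**Figure D5:**
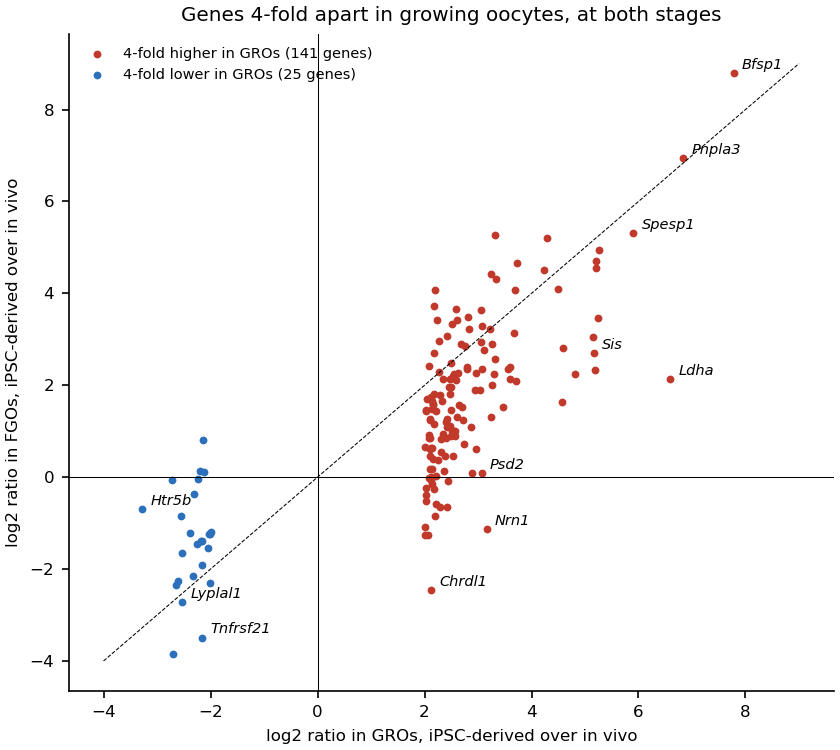
Log2 ratio of iPSC-derived over in vivo oocytes in GROs (horizontal axis) and FGOs (vertical axis) for the 141 genes 4-fold higher (red) and 25 genes 4-fold lower (blue) in GROs, with equal ratios on the dashed line. Most red points lie above 0 and most blue points below 0 in FGOs, while Chrdl1 and Nrn1 lie on the opposite side, and the GRO ratio of Nrn1 rests on 1 oocyte.

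Promoter sequence was the remaining feature that the comparison did not use. A promoter was called CpG-dense when the 300 bases from 250 before to 50 after the start had an observed-to-expected CG ratio of at least 0.6 and a GC content of at least 50%, at any start of the gene. A sequence was found for 112 of the 141 higher genes, and 42 of these (37.5%, exact binomial 95% interval 28.5% to 47.1%) were CpG-dense, beside 65.8% of the 10361 compared genes with a sequence. Low transcripts in general had fewer dense promoters. Among genes under 5 pooled CPM in GROin vivo the shares were 37.4% of the higher genes (27.4% to 48.1%, an interval that holds the share of all such genes) and 46.0% of all such genes, and among genes of at least 5 CPM they were 38.1% (8 of 21) and 74.7%. Of the 20 lower genes with a sequence, 13 (65%) were CpG-dense. Of the 6 promoters printed above, Spesp1 and Ankrd33b met the rule and Bfsp1, Pnpla3, Pxdn and Krt12 did not. Higher genes lay on all 19 autosomes and the X chromosome, with the largest share on chromosome 15 (13 of 536 compared genes, 2.43%) beside 1.07% of all genes. Chromosome medians of the ratio ran from -0.09 to 0.04, with the X chromosome at 0.04.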

How the data were processed

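Single oocytes were sequenced by Smart-seq2. The deposited table holds raw read counts per gene, which the authors made by aligning single-end reads with STAR to GRCm38 (mm10) with spike-in sequences added, placing multiply aligned reads at random, and counting uniquely aligned reads over the exons of 1 randomly chosen transcript per gene with QuasR. Strand use is not given in the sources used here, and no spike-in row was in the table. The random transcript and ambiguous reads make levels of genes with copies or overlaps uncertain. Every column matched a sample by its title, and groups came from the source label. For 21907 of 21950 identifiers a RefSeq symbol was found.

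Counts were summed per group, scaled to 1000000 reads and compared as log2((CPM + 0.5)/(CPM + 0.5)) for genes above 1 CPM in at least 3 of 47 GROs, with a size rule of 4-fold (Python 3.11.15, numpy 2.4.6, pandas 2.3.3, scipy 1.17.1). Summing replaces the per-stage edgeR model of the study because the labels name no replicate unit above the oocyte. Pooled levels have exact Poisson and shares exact Clopper-Pearson 95% intervals, which treat reads or genes as independent. The ratio was tested on simulated data. Up to 15 genes were named per direction, ordered by ratio, provided that the group with more transcript reached 5 CPM when pooled and that the medians over oocytes and every fit lacking 1 oocyte also gave 4-fold. List members past 4-fold (or else up to 2 with the largest absolute ratio) and defining markers were named too. The members and all 31 gene lists were chosen with earlier results of these data known, so they are not independent evidence. A gene list taken from the study's text was also chosen on these samples. Alternatives were pseudocounts of 0.1 and 2 CPM, other filters, TMM (edgeR 4.0.16) and DESeq2 (1.42.0) factors in R 4.3.3, means and medians over oocytes, edgeR coefficients without a test, 2-fold and 8-fold rules, each oocyte left out, and iPSC-derived libraries within the in vivo range of totals. The authors' selection of oocytes by size was not applied. A few genes are not reported here. The oocytes of the other groups were not analysed here beyond the values named.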

Additional observations from a re-analysis of the deposited data

How the results depend on the processing

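Of 236 values recomputed for the main results, 194 were labelled as unchanged and 42 as moved. Counts and median ratios were labelled by a fixed tolerance around the main value, and shares by its exact binomial interval. No spread between replicates entered these labels. The counts of genes 4-fold higher and lower were 292 and 73 with a pseudocount of 0.1 CPM, 60 and 5 with 2 CPM, 365 and 112 from edgeR negative binomial coefficients, 737 and 575 at 2-fold, and 42 and 1 at 8-fold. With 1 oocyte left out they ran from 135 to 146 and from 19 to 28. Against in vivo GROs 17 to 24, chosen after seeing the data, 138 genes were lower, 353 had every iPSC-derived GRO above and 890 every one below, and against numbers 1 to 16 there were 89 below. Against numbers 17 to 24 lower genes thus outnumbered the 135 higher ones. The share of genes lower in gonad-derived FGOs than GROs among the higher genes was 20.0% from edgeR coefficients, 14.0% at 2-fold, 45.2% at 8-fold and 5.67% with these classes at 4-fold. Among the lower genes it was 0% with 2 CPM, 3.85% between medians, 0% at 8-fold and 4.00% with classes at 4-fold. The share of genes higher in gonad-derived FGOs among the higher genes was 3.33% with 2 CPM, below the 5.05% of all genes, 18.9% from edgeR and 2.13% with classes at 4-fold, and among the lower genes 0% with 2 CPM and at 8-fold. The share of higher genes in the same direction in FGOs was 96.7% with 2 CPM, 72.1% from edgeR, 73.8% at 2-fold and 97.6% at 8-fold. For lower genes it was 100% with 2 CPM and at 8-fold, 64.3% from edgeR, 100% without in vivo GRO 3, and 84.6% to 100% with 1 oocyte left out. The share of CpG-dense promoters was 50% of the higher genes at 8-fold, and 54.5% of the higher and 85% of the lower genes at a CG ratio of 0.4. For the lower genes it was 36.8% between medians and 87.0% against numbers 17 to 24. The glycolysis median was 0.32 with 2 CPM. Fewer genes entered the stricter rules by construction. The cause of the other changes was not tested. Of 37 named genes past 4-fold, 23 were still past it with 2 CPM, 31 between medians, 34 against numbers 1 to 16 and 31 against numbers 17 to 24. No paired analysis was possible because oocytes of different groups share only a title number and no test was run. A count of 0 in a summed group allows up to 3 reads.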

Other observations

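Gene families outside the lists were counted after their values had been seen, so the counts are a description. Of 241 measured solute carriers, 27 were at least 2-fold higher (5.61% of all genes) and 13 lower (4.38%). At 4-fold 10 stood above in vivo levels and 0 below, against 1.07% and 0.19% of all genes. Beside Slc4a3 they included Slc27a2, a fatty acid transporter (2.04 to 25.9 CPM against 0 to 3.25 CPM), and Slc17a6, a vesicular glutamate transporter (2.95 to 16.0 CPM against 0 to 1.14 CPM). Of 8 measured Hox genes, Hoxa10 (2.57) and Hoxd8 (2.55) were 4-fold higher, 4 were 2-fold higher (5.61% of all genes) and 0 lower (4.38%), with overlapping oocytes. Pooled levels of Hoxd9 (1.94), 1 of the 4, were 17.7 and 4.25 CPM. Of 9 measured defensins 2 were 4-fold and 7 at least 2-fold higher (5.61% of all genes). Of 21 keratins, Krt79 (3.33) and Krt8 (2.60) were 4-fold higher and Krt12 (-2.61) 4-fold lower. Krt79 ran from 26.5 to 1433 CPM in iPSC-derived GROs (median 194) and from 0.149 to 151 CPM in vivo (median 20.0). Of 325 zinc finger genes named Zfp, 1 was 4-fold higher and 0 lower, and of 17 collagens none was 4-fold apart.

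Beyond the 15 named higher genes, Ralgds, an activator of Ral GTPases, had 273 to 610 CPM in iPSC-derived GROs (median 472) and 29.2 to 85.4 CPM in vivo (median 55.7), with 41.1 CPM in pooled gonad-derived GROs. Mtfr2, a mitochondrial fission regulator, had 320 to 643 CPM (median 475) against 18.2 to 68.4 CPM (median 33.3), with 221 CPM in gonad-derived GROs. Both were chosen after their values were seen. A few genes divided the oocytes of a group by an empty gap of at least 4-fold. In iPSC-derived GROs Defb41 was at or above 101 CPM in 3 oocytes and at or below 17.2 CPM in 20, and in in vivo GROs Sohlh1, a germ cell transcription factor, was at or below 0.708 CPM in 3 oocytes and at or above 4.63 CPM in 21. The oocytes with the lowest correlation of log levels with the median of their own group were in vivo GRO 19 (0.947) and iPSC-derived GRO 8 (0.955).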
